A study of Gallus gallus with 28 samples.

Results

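The nuclear genes of oxidative phosphorylation were followed in the basilar papilla of the chicken, its auditory epithelium, after treatment with streptomycin. This aminoglycoside antibiotic is toxic to hair cells, the sensory cells of the ear. Genes were chosen by name, as rows that begin with the symbols of complex I (NDUFA, NDUFB, NDUFC, NDUFS or NDUFV and a number), SDHA to SDHD, UQCR, COX4 to COX8 or ATP5. The rule gave 60 of the 17684 features of the deposited table. Of these, 29 belong by name to complex I, 3 to complex II, 8 to complex III, 7 to complex IV and 11 to complex V. The other 2 matched only by name. COX4NB lies beside a COX4 gene and encodes a part of the endoplasmic reticulum membrane complex, and ATP5S is not a canonical subunit. This leaves 58 subunit genes. NDUFA4 is counted with complex I by its name, although in mammals its protein is known as part of complex IV. COX7A2L is likewise counted with complex IV by its name. Values were RPKM, read density scaled for gene length and for library size, in all 28 samples, and all 60 genes had at least 1 RPKM in every sample.

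The respiratory chain passes electrons from NADH (complex I) and succinate (complex II) through complex III to complex IV, cytochrome c oxidase, which reduces oxygen. Complexes I, III and IV pump protons across the inner mitochondrial membrane, and complex V, ATP synthase, uses the gradient to make ATP. Most subunits are nuclear genes, while some, among them core proteins of complexes III and IV, are encoded by mitochondrial DNA. Hair cells carry many mitochondria, and aminoglycosides are known to disturb mitochondrial function in them.

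The series compared dissected papillae that spent 24 h in streptomycin and then recovered with papillae given none. Time points were labelled 0, 24, 48, 72, 96, 120, 144 and 168 h, and each had a streptomycin (treated) group and a group with no treatment (control). There were 15 treated and 13 control samples, with 2 in each group except the controls at 72, 96 and 120 h and the treated group at 96 h, which had 1. No genotype, strain or age is given in the labels. The series text calls the samples of a time point biological, but it is not stated whether they were separate animals or cultures. The p-values thus reflect the sample-to-sample spread, which may be technical. In the fit over all times that spread also takes in changes of the treated minus control difference between times. Libraries held 16.48 to 38.17 M alignments (median 19.85 M). The second sample had the higher summed RPKM of the 58 subunit genes in 12 of 12 groups with 2 samples. The gap was widest in the treated groups, with 2510 and 4136 RPKM at 168 h and 2479 and 3952 RPKM at 24 h, where all 58 subunit genes were higher in the second sample. Calls named here that ended without both or either of these second samples are marked as such. At 72 and 120 h the treated group held samples 1 and 2 and the control group sample 1 alone. Comparisons that take in these times were therefore not balanced in sample number.

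Cell type markers also moved between the arms. At 0 to 48 h the summed RPKM of 8 hair cell markers was 7.26 to 30.6 in treated and 447 to 977 in control samples, with 0 higher and 8 lower. None of the 8 was at 0 in all treated samples, and 6 had a treated median under 1 RPKM. The 5 supporting cell markers summed to 552 to 859 against 71.3 to 491 RPKM (4 higher, 0 lower), the 4 neuron markers to 4.61 to 8.25 against 60.5 to 111.6 (0 higher and 3 lower of 3 tested), and the 4 leukocyte markers to 11.5 to 27.6 against 24.2 to 71.0 (0 higher, 2 lower). The 4 pericyte markers summed to 13.5 to 35.2 against 22.1 to 47.6 RPKM (0 higher, 2 lower), the 7 muscle markers to 3.36 to 11.4 against 3.99 to 9.50 (1 higher and 0 lower of 3 tested) and the 3 erythrocyte markers to 1.59 to 24.9 against 6.74 to 85.0 (0 either way). These counts stand beside 27.6% higher and 23.5% lower among all features in that window. At 120 to 168 h hair cell markers summed to 11.9 to 20.5 against 126 to 309 RPKM, supporting cell markers to 104 to 192 against 75.0 to 112, neuron markers to 3.08 to 11.3 against 13.9 to 27.3 and leukocyte markers to 43.1 to 84.6 against 110 to 163. The late sums were 52.2 to 68.8 against 47.3 to 78.3 RPKM for pericyte markers, 11.5 to 24.3 against 23.3 to 42.3 for muscle markers and 1.51 to 16.9 against 2.12 to 8.79 for erythrocyte markers. In bulk tissue, fewer cells of a type and less RNA per cell cannot be told apart, and the part of these cell types in the results was not tested.

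The most abundant members, by mean RPKM over the 28 samples, were COX4I1 (197) and COX6A1 (174) of complex IV, followed by ATP5I (161) of complex V and UQCR10 (148) of complex III. NDUFB9 led complex I at 99.3 RPKM, and SDHD led complex II at 63.7 RPKM. The lowest were ATP5S (8.61), NDUFA7 (10.2), NDUFV3 (11.5) and NDUFS7 (12.7). Subunits of 1 complex therefore stood at levels several times apart, as with COX4I1 and COX7A2 (21.9 RPKM).

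At 0 to 48 h (6 treated against 6 control samples) the genes did not move as 1 block, and directions varied with the complex. All 7 nuclear genes of complex IV that were analysed fell, with log2 differences from -0.72 to -0.42. In complex V 4 of 11 were lower and 0 higher. SDHA of complex II rose, and in complexes I and III some genes rose and others fell. The largest rise was NDUFV3 of complex I and the largest fall UQCR11 of complex III. Of the 60 members 6 were higher and 16 lower (limma, Benjamini-Hochberg adjusted p under 0.05 over 12195 features tested). Of all features 27.6% were higher and 23.5% lower. The 36.7% of members called in either direction lies under the 51.1% of all features, and the median log2 difference was -0.15 for members against 0.03 for all features. Over 0 and 48 h alone, a choice made after seeing the data, 5 members were higher and 8 lower. The count of falls was 10 without sample 2 of the controls at 24 h and 10 without sample 1 of the treated at 24 h, and the count of rises was 3 without sample 1 of the treated at 48 h. Without the second treated samples at 24 and 168 h it was 4 higher and 22 lower, UQCR10 and UQCRFS1 losing their calls.

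**Figure D1:**
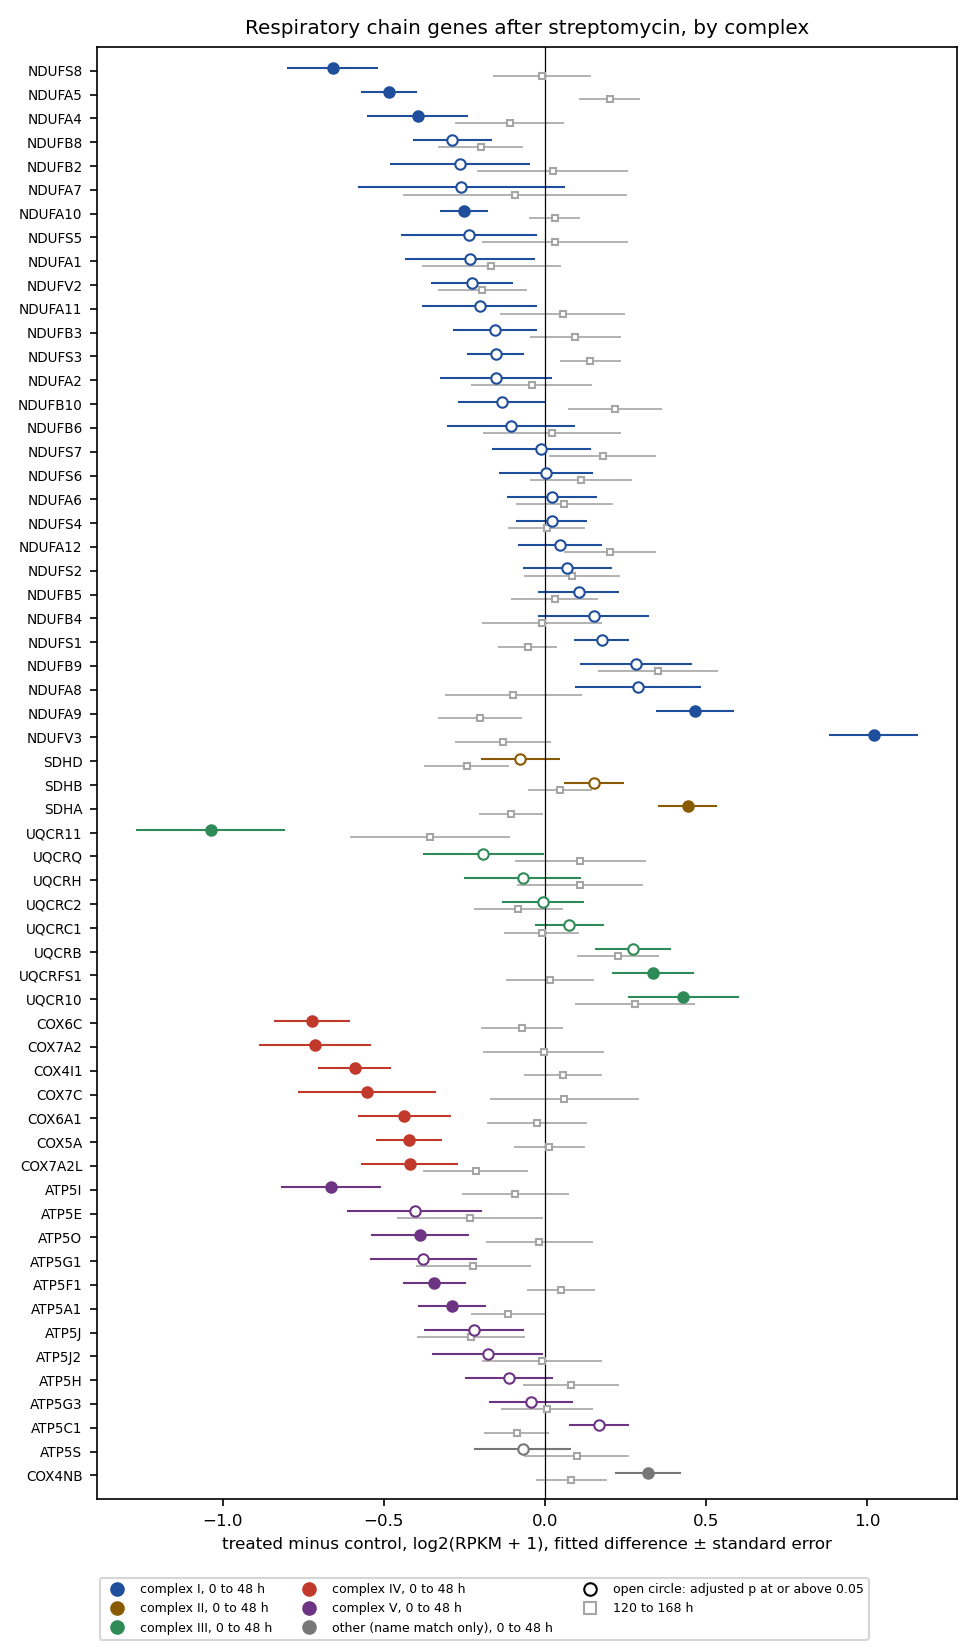
Fitted treated minus control difference of each of the 60 members on the log2(RPKM + 1) scale (horizontal axis), with its standard error. Coloured circles stand for 0 to 48 h (filled where the adjusted p is under 0.05) and grey squares for 120 to 168 h; all 7 genes of complex IV lie left of 0 as filled circles, from -0.72 to -0.42, while their squares lie between -0.22 and 0.06.

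In complex IV, COX6C, a small membrane subunit, stood at 40.5, 52.8 and 63.7 RPKM (lowest, median and highest of 6) in treated and at 69.2, 85.7 and 111 RPKM in control samples. The groups did not overlap. Its log2 difference was -0.72 ± 0.12 (standard error, limma adjusted p = 8.14e-05). COX7A2, the subunit isoform used outside heart and muscle in mammals, stood at 10.1, 18.6 and 23.9 against 25.7, 29.5 and 34.4 RPKM, again without overlap (-0.71 ± 0.17, adjusted p = 0.00243). COX4I1, the ubiquitous form of the largest nuclear subunit, stood at 107, 141 and 179 against 159, 218 and 283 RPKM. Its groups overlapped over the whole window, yet each of 6 treated samples lay under the control mean of its own time (-0.59 ± 0.11, adjusted p = 0.000343). COX5A, a matrix-side subunit, stood at 30.0 ± 6.75 (SD, n = 6) against 40.2 ± 7.71 RPKM (SD, n = 6), lower in 5 of 6 treated samples (-0.42 ± 0.10, limma adjusted p = 0.00228).

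The other complex IV genes passed less firmly. COX7C had a log2 difference of -0.55 ± 0.21 (limma adjusted p = 0.0392), COX6A1 of -0.44 ± 0.14 (adjusted p = 0.0181) and COX7A2L, linked in mammals to the assembly of respiratory supercomplexes, of -0.42 ± 0.15 (adjusted p = 0.0276). Each was lower in 6 of 6 treated samples. COX6A1 lost its call without sample 2 of the controls or sample 1 of the treated at 24 h, and COX7C and COX7A2L each lost theirs in 7 of the 28 fits that left out 1 library. Over 0 and 48 h alone, COX4I1, COX6C and COX7A2 passed and the other 4 did not. NDUFA4 moved the same way (38.1 ± 7.07 against 50.0 ± 6.52 RPKM, SD, n = 6 each, -0.40 ± 0.16, limma adjusted p = 0.0432), so with it 8 of 8 fell, although its call was lost in 10 of the 28 fits. The second treated sample at 24 h held 179 RPKM of COX4I1 and the first 119, both under the 207 and 283 RPKM of the controls, and without the second treated samples at 24 and 168 h all 7 complex IV calls held.

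As a share of the summed RPKM of the 58 subunit genes, a measure in which a library-wide scale cancels, complex IV held 14.6% ± 0.71 (SD, n = 6) in the treated group at 0 to 48 h, against 19.1% ± 1.64 (SD, n = 6) in controls. These shares describe the levels and were not tested. The treated range, 13.9% to 15.9%, lay under the control range, 16.5% to 20.3%. At 24 h the treated samples held 13.9% and 14.5% and the controls 20.3% in both. Complex III held 16.7% to 18.4% against 13.7% to 14.7%, also without overlap. UQCR10 carried part of that gap, since without it the ranges, 10.5% to 11.7% and 9.19% to 10.6%, overlapped. Complex V held 25.8% to 27.9% against 28.1% to 30.4%, and complex II 4.75% to 5.95% against 3.70% to 4.62%. Complex I held the largest share in both arms, 34.8% to 36.5% against 32.1% to 34.9%, and its ranges overlapped. A share also depends on the sums of the other complexes. Mean sums, treated against control, were 1097 against 1142 RPKM for complex I and 164 against 147 for complex II. They were 540 against 487 for complex III (349 against 345 without UQCR10), 452 against 660 for complex IV and 824 against 1004 for complex V. These sums keep the library-wide scale. As a mean percentage of all RPKM of a library, complex I was higher in treated samples (0.372 against 0.341). Complexes II (0.0559 against 0.0442) and III (0.183 against 0.145) were higher too. Complexes IV (0.153 against 0.195) and V (0.2794 against 0.2996) were lower. The 58 subunit genes together held 1.04 against 1.03, and these percentages were not tested.

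**Figure D2:**
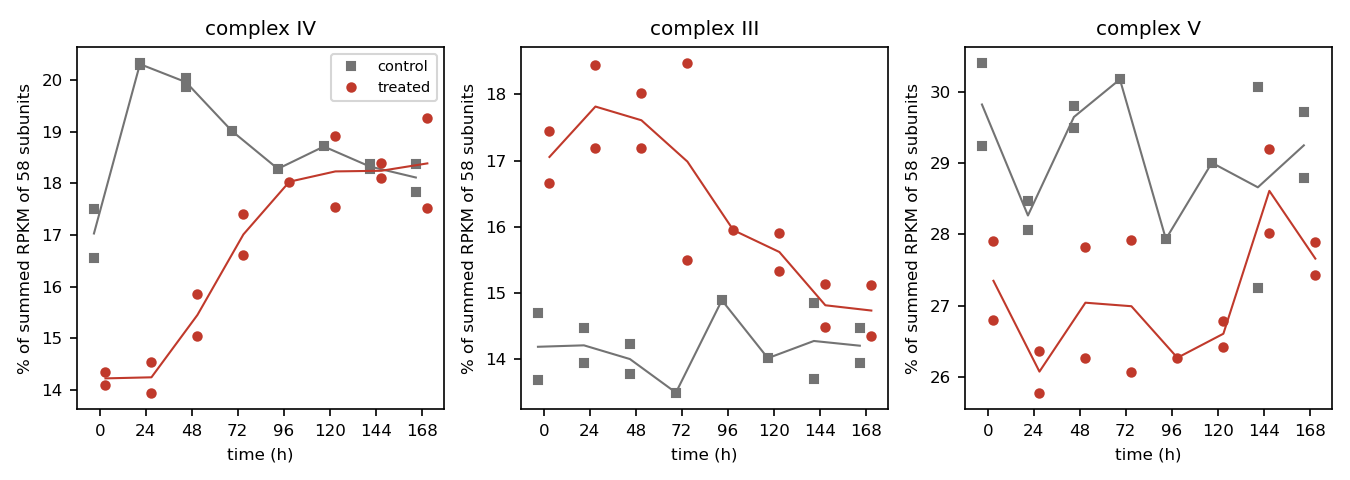
Share of the summed RPKM of 58 subunit genes held by complexes IV, III and V (vertical axes, percent, not starting at 0) by labelled time in hours, 1 point per sample with lines through group means. Treated samples held 13.9% to 15.9% in complex IV at 0 to 48 h against 16.5% to 20.3% in controls, and 17.5% to 19.3% against 17.8% to 18.7% at 120 to 168 h.

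Of the 11 complex V genes 4 fell (36.4%) and 0 rose, against 23.5% of all features lower and 27.6% higher. Their log2 differences were negative in 10 of 11. ATP5I, subunit e of the membrane part, stood at 90.7, 129 and 177 against 164, 198 and 232 RPKM. The ranges overlapped, but 6 of 6 treated samples were under their own controls (-0.66 ± 0.15, limma adjusted p = 0.00172). ATP5F1, a stalk subunit, stood at 105 ± 13.4 against 135 ± 22.5 RPKM (SD, n = 6 each, -0.34 ± 0.10, limma adjusted p = 0.00721). ATP5A1, the alpha subunit of the catalytic head, gave -0.29 ± 0.11 (limma adjusted p = 0.0299). In the reference gene table this gene has copies on both sex chromosomes, and which copy its reads came from is uncertain. ATP5O, a stalk subunit named after its value was seen, gave -0.39 ± 0.15 (limma adjusted p = 0.043). ATP5A1 lost its call in 8 and ATP5O in 10 of the 28 fits that left out 1 library. ATP5G3, a subunit of the proton-driven ring and among the most abundant members, stood at 125 ± 19.8 against 128 ± 15.0 RPKM (SD, n = 6 each, -0.04 ± 0.13, limma adjusted p = 0.807).

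Complex I held the strongest rise beside falls. NDUFV3, a small subunit of the NADH-binding module, stood at 13.8, 15.7 and 24.6 RPKM in treated and 5.60, 7.22 and 12.1 RPKM in control samples. It was the 1 member whose treated range lay wholly above the control range, as did 10.1% of all features. The log2 difference was 1.02 ± 0.14 (limma adjusted p = 1.14e-05). NDUFA9, an accessory subunit near the junction of the arms, stood at 31.0, 34.2 and 46.8 against 18.6, 25.6 and 35.4 RPKM and was higher in 6 of 6 treated samples (0.46 ± 0.12, adjusted p = 0.00397). NDUFS8, which carries iron-sulfur clusters toward the quinone, stood at 15.5, 24.4 and 28.2 against 25.1, 36.6 and 50.5 RPKM and was lower in 6 of 6 (-0.66 ± 0.14, adjusted p = 0.000876). The accessory subunits NDUFA5 (-0.48 ± 0.09, limma adjusted p = 0.000201) and NDUFA10 (-0.25 ± 0.07, adjusted p = 0.00914) also fell. With NDUFA4 this makes 2 higher and 4 lower of 29, against 27.6% and 23.5% of all features, and the median of the complex was -0.13. The most abundant member, NDUFB9, gave 0.28 ± 0.17 (adjusted p = 0.186).

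In complex II, SDHA, the flavoprotein that oxidises succinate, stood at 40.9, 46.9 and 56.6 RPKM in treated and 31.4, 34.4 and 41.1 in control samples. The ranges overlapped by 1 treated and 1 control sample, and 6 of 6 treated samples were above their own controls (0.44 ± 0.09, limma adjusted p = 0.000636). Its partner SDHB, the iron-sulfur subunit, gave 0.15 ± 0.09 (adjusted p = 0.185) and the membrane anchor SDHD -0.08 ± 0.12 (adjusted p = 0.63). SDHC was not analysed here.

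Within complex III, 2 genes rose and 1 fell of 8, against 27.6% and 23.5% of all features. UQCR11, a small membrane subunit, stood at 4.92, 10.3 and 15.3 against 15.7, 19.5 and 31.4 RPKM, without overlap (-1.04 ± 0.23, limma adjusted p = 0.00124). COX6C, COX7A2 and UQCR11 were the 3 members whose treated range lay wholly under the control range, as did 7.28% of all features. UQCRFS1, the Rieske iron-sulfur protein, stood at 64.8 ± 9.46 against 51.1 ± 7.85 RPKM (SD, n = 6 each, 0.34 ± 0.13, limma adjusted p = 0.0348). UQCR10, another small subunit, stood at 137, 183 and 273 against 107, 130 and 204 RPKM (0.43 ± 0.17, adjusted p = 0.0459). Their calls were lost in 8 and 13 of the 28 fits that left out 1 library. The core proteins UQCRC1 (0.08 ± 0.11, adjusted p = 0.586) and UQCRC2 (-0.01 ± 0.13, adjusted p = 0.974) did not pass. Of the name matches, COX4NB gave 0.32 ± 0.10 (adjusted p = 0.0142), a call lost without sample 1 of the treated at 48 h, and ATP5S -0.07 ± 0.15 (adjusted p = 0.731).

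**Figure D3:**
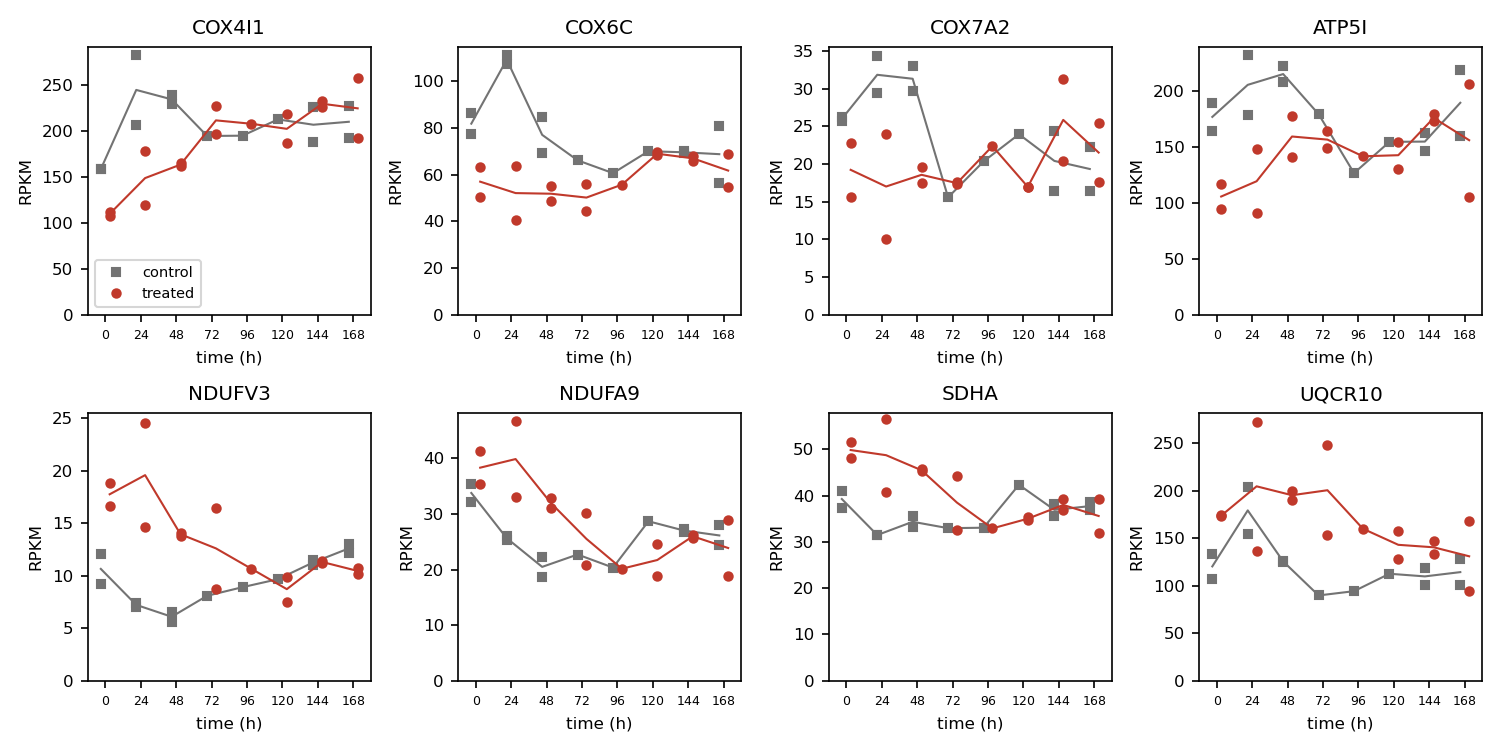
RPKM (vertical axes from 0) of 8 members by labelled time in hours, 1 point per sample with lines through group means. COX4I1, COX6C, COX7A2 and ATP5I are lower in treated samples at 0 to 48 h and overlap with the controls at 120 to 168 h, where each of 6 treated samples of COX6C still lay under its own control mean. NDUFV3, at 13.8 to 24.6 against 5.60 to 12.1 RPKM at 0 to 48 h, is at 7.53 to 11.4 against 9.67 to 13.0 at 120 to 168 h.

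At single times the calls fell on the first 3 time points. At 0 h, 1 member, NDUFV3, was higher and 3 were lower, against 14.6% and 10.9% of all features. Of those that passed, ATP5I (-0.74) and ATP5A1 (-0.61) had the largest falls, and their calls were lost in 18 and 3 of the 28 fits that left out 1 library. The call of NDUFV3 at 0 h was lost in 6, among them each fit without 1 library of that time. At 24 h, 3 members were higher and 10 lower, against 18.4% and 18.3% of all features. UQCR11 (-1.26 ± 0.40, limma adjusted p = 0.0203) and COX6C (-1.09 ± 0.21, adjusted p = 0.00057) led the falls and NDUFV3 (1.28 ± 0.24, adjusted p = 0.000516) and SDHA (0.60 ± 0.16, adjusted p = 0.00709) the rises. The calls of SDHA and NDUFA9 at 24 h were lost without the second treated sample, and that of NDUFA9 also without either control sample. The call of UQCR11 at 24 h was lost without sample 2 of the controls or sample 1 of the treated. COX6C stood there at 40.5 and 63.7 against 107 and 111 RPKM. Of the 7 complex IV genes 4 were called lower at 24 h, and 0 were called at 0 h or at 48 h. The call of COX4I1 at 24 h was lost without sample 2 of the controls or sample 1 of the treated. That of COX7A2 at 24 h was lost without sample 1 of either arm. At 48 h 2 members, NDUFV3 (1.08) and NDUFA9 (0.62), were higher and 0 lower, against 13.8% and 13.9% of all features. The call of NDUFA9 at 48 h was lost in 4 of the 28 fits, each without 1 library of that time. From 72 h on 0 members passed at any time by limma, with 13.8%, 3.93%, 2.55%, 5.88% and 1.16% of all features called at 72, 96, 120, 144 and 168 h. With sample number as a block, limma called 8 members at 0 h, 11 at 48 h, 1 at 72 h (UQCR10) and 1 at 144 h (NDUFA5). The counts rest on few samples: leaving out 1 library gave 0 to 7 calls at 0 h (0 or 1 without any 1 library of that time, 7 without either treated sample at 24 h), 7 to 17 at 24 h (7 without sample 2 of the controls), 1 to 10 at 48 h (1 without any 1 library of that time, 10 without either treated sample at 24 h) and 0 to 3 at 72 h (3 without sample 1 of the treated).

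**Figure D4:**
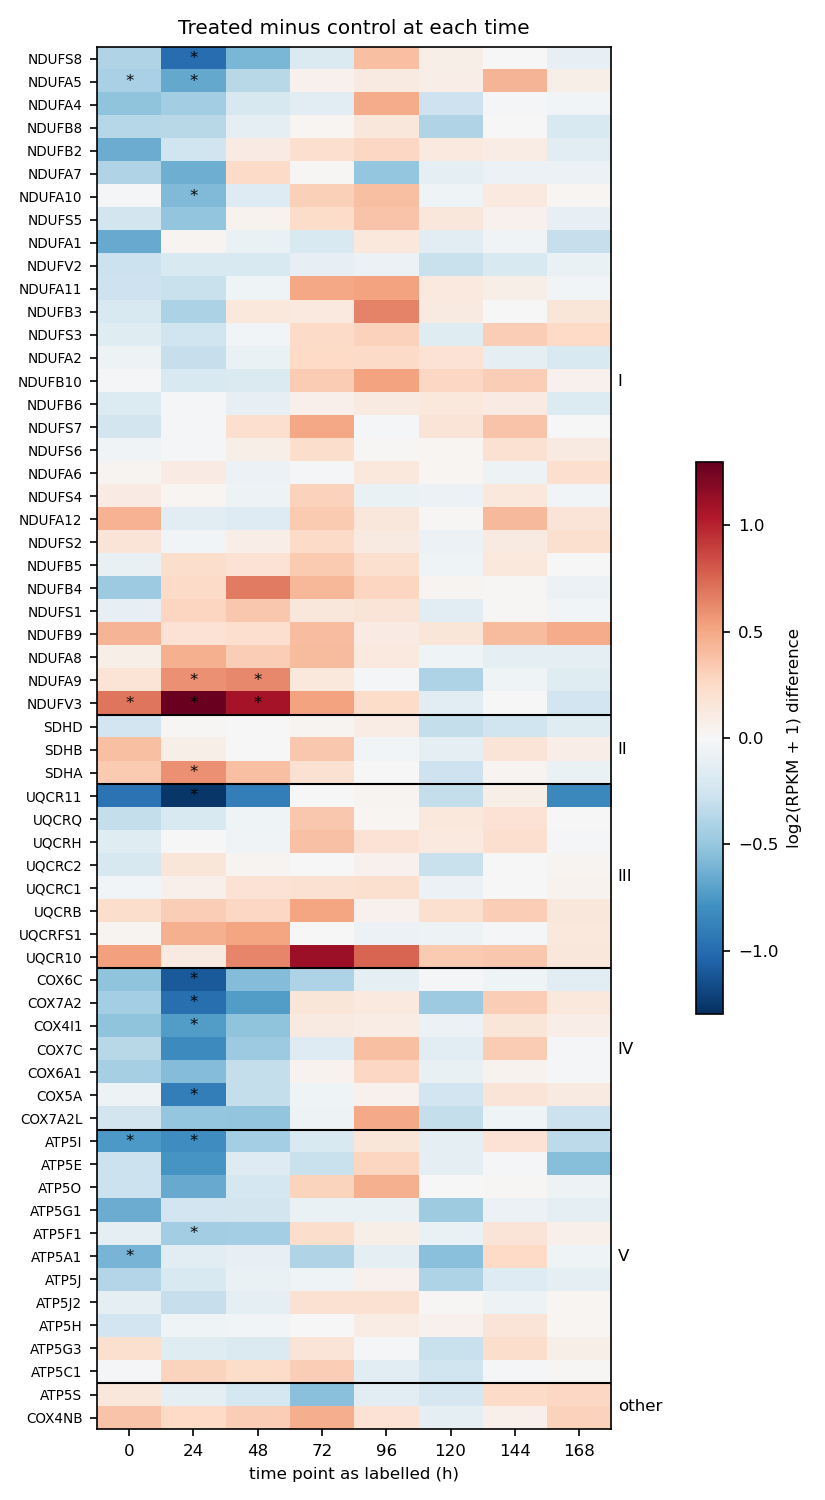
Treated minus control difference of the 60 members (rows, ordered by complex and then by their 0 to 48 h value) at each labelled time in hours (columns), coloured on the log2(RPKM + 1) scale, with stars for an adjusted p under 0.05. Stars stand in the columns of 0, 24 and 48 h, with 4, 13 and 2 of them. All 7 genes of complex IV are negative in the same columns, but 4 of them have stars at 24 h and 0 at 0 h or at 48 h. The stars of COX4I1 and COX7A2 at 24 h were each lost in 2 of the fits that left out 1 library. At 120 h all 7 are negative too, without stars (median -0.136, against -0.135 for all features).

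At 120 to 168 h (6 treated against 5 control samples) no member passed in either direction by limma, while 4.31% of all features were higher and 15.1% lower. At an unadjusted p under 0.05 there was 1 member. The median log2 difference was 0.01 for members and -0.07 for all features. COX4I1 stood at 219 ± 26.5 (SD, n = 6) against 210 ± 18.5 RPKM (SD, n = 5), with a log2 difference of 0.06 ± 0.12 (limma adjusted p = 0.793). NDUFV3 stood at 10.2 ± 1.41 against 11.5 ± 1.26 RPKM and SDHA at 36.2 ± 2.86 against 38.3 ± 2.52 RPKM. The share of complex IV was 17.5% to 19.3% in treated and 17.8% to 18.7% in control samples. For all 60 members the 2 ranges overlapped, while 8.7% of all features had a treated range wholly under and 2.72% wholly above the control range. At 120 h the treated group held samples 1 and 2, with summed subunit RPKM of 2780 and 3302, and the control group sample 1 alone. The main late comparison was thus not balanced in sample number. With sample number as a block SDHD was called lower. With the block within each time ATP5J, NDUFB8 and NDUFV2 were too.

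Whether the difference itself changed was tested as the late minus the early difference. There 7 members moved up and 3 down, against 12.6% and 21.9% of all features. NDUFA5 (0.68 ± 0.13, limma adjusted p = 0.000778) and the complex IV genes COX7A2 (0.71 ± 0.26, adjusted p = 0.0397), COX6C (0.65 ± 0.17, adjusted p = 0.00834), COX4I1 (0.65 ± 0.17, adjusted p = 0.00664) and COX5A (0.43 ± 0.15, adjusted p = 0.0321) moved up. NDUFS8 (0.65 ± 0.21, adjusted p = 0.022) and ATP5F1 (0.39 ± 0.14, adjusted p = 0.0421) were the others. NDUFV3 (-1.15 ± 0.20, adjusted p = 0.000465), NDUFA9 (-0.67 ± 0.18, adjusted p = 0.00823) and SDHA (-0.55 ± 0.13, adjusted p = 0.00473) moved down. In complex IV 4 of 7 passed and all 7 had positive values. Rescaling by median ratios moved the median of all features in this test by 0.12, from -0.12, and 15 members then moved up. The shares of all features above are those of the main fit, and none was computed after rescaling. Over the windows of 0 and 48 h and of 120 and 168 h 0 members moved up and 3 down. The count upward was 13 without sample 2 of the treated at 24 h or sample 1 of the treated at 168 h. It was 4 without sample 1 of either arm at 0 h, of the controls at 48 h or of the treated at 144 h, and without sample 2 of the treated at 48, 120 or 168 h. COX7A2 lost its call with the block within each time. In the 28 fits that left out 1 library the calls of ATP5F1, COX7A2 and COX5A were lost in 18, 15 and 10. Each of these calls was among those lost without sample 2 of the treated at 168 h.

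Both arms changed over time. In treated samples the late minus early comparison gave 8 higher and 6 lower members, against 24.8% and 29.9% of all features. COX4I1 rose from 141 ± 31.3 to 219 ± 26.5 RPKM (SD, n = 6 each, 0.66 ± 0.11, limma adjusted p = 0.0001). COX5A (0.43 ± 0.10), COX6C (0.30 ± 0.12), SDHD (0.40 ± 0.12), NDUFS8 (0.51 ± 0.14), NDUFS5 (0.52 ± 0.21), NDUFB9 (0.47 ± 0.17) and ATP5S (0.83 ± 0.15) rose too. NDUFV3 (-0.68 ± 0.14), NDUFA9 (-0.61 ± 0.12), NDUFB4 (-0.47 ± 0.17), UQCR10 (-0.46 ± 0.17), SDHA (-0.39 ± 0.09) and COX4NB (-0.31 ± 0.10) fell. Rises numbered 18 without sample 2 of the treated at 24 h, 15 without sample 1 of the treated at 168 h and 5 without sample 2 of the treated at 0, 120, 144 or 168 h or sample 1 at 24 h. Falls numbered 15 without sample 2 of the treated at 168 h and 10 without sample 1 at 24 h. With the block within each time the counts were 19 and 11. The calls of NDUFS5, COX6C, UQCR10, NDUFB4, NDUFB9 and COX4NB were lost in 14, 8, 8, 6, 6 and 2 of the 28 fits that left out 1 library. Those of NDUFS5, COX6C and NDUFB9 were lost, among others, without sample 2 of the treated at 168 h. Those of UQCR10 and NDUFB4 were lost, among others, without sample 2 of the treated at 24 h. Markers moved over the same interval, with 5 of 5 supporting cell markers lower, 4 of 4 leukocyte markers higher, 3 of 4 pericyte markers higher and 1 lower, 5 of 8 hair cell markers higher and 1 lower, and 2 of 3 muscle markers higher. Hair cell markers stayed low in treated samples, with sums of 7.26 to 30.6 RPKM early and 11.9 to 20.5 late. Of the 8, 6 had a median under 1 RPKM early and 3 late. Of the neuron and erythrocyte markers 0 of 3 passed in each list, and the part of these cells in the changes over time was not tested.

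Controls gave 3 higher and 6 lower members late minus early, against 28.7% and 20.3% of all features. SDHD (0.57 ± 0.13, limma adjusted p = 0.0018), ATP5S (0.66 ± 0.16) and NDUFV3 (0.47 ± 0.15, adjusted p = 0.0146) rose. NDUFA5 (-0.58 ± 0.09, adjusted p = 8e-05), NDUFB10 (-0.53 ± 0.15), COX7A2 (-0.48 ± 0.19), NDUFS3 (-0.37 ± 0.10), COX6C (-0.35 ± 0.13) and NDUFA10 (-0.26 ± 0.08) fell. SDHD and ATP5S rose in both arms. COX6C fell in controls and rose in treated samples, and NDUFV3 rose in controls and fell in treated samples. The fall of COX6C in controls was lost in 6, its rise in treated samples in 8 and the fall of COX7A2 in controls in 13 of the 28 fits that left out 1 library. In controls 8 of 8 hair cell, 3 of 3 neuron, 3 of 3 erythrocyte and 3 of 5 supporting cell markers were lower late than early. There 4 of 4 leukocyte, 2 of 3 muscle and 2 of 4 pericyte markers were higher, with 1 pericyte marker lower, and their part was not tested. Rescaling gave 17 falls in place of 6. The block by sample number gave 5 rises, and the block within each time 7, where COX7A2 lost its call. From 0 to 24 h the controls rose in COX4I1 (159 and 159 to 207 and 283 RPKM, 0.61 ± 0.20, limma adjusted p = 0.0305), NDUFA10 (0.51 ± 0.13) and NDUFA5 (0.44 ± 0.15), 3 members against 25.9% of all features. Leaving out 1 library gave 0 to 7 such calls. There were 0 without sample 1 and 1 without sample 2 of the controls at 0 h, 5 without sample 1 and 1 without sample 2 of the controls at 24 h, and 6 or 7 without either treated sample at 24 or at 168 h. In treated samples 0 members passed over the same interval by limma, 0 had an unadjusted p under 0.05, and 1.81% of all features passed. The block within each time called COX4I1 there. The difference of these first-day changes was not tested.

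Over all 8 times (15 treated and 13 control samples), 5 members were higher and 4 lower, against 20.2% and 21.7% of all features. UQCR10 (0.46 ± 0.12, limma adjusted p = 0.0031), NDUFV3 (0.47 ± 0.14, adjusted p = 0.00932), NDUFB9 (0.32 ± 0.10, adjusted p = 0.0167), UQCRB (0.26 ± 0.07, adjusted p = 0.00633) and COX4NB (0.24 ± 0.07, adjusted p = 0.00813) were higher. UQCR11 (-0.59 ± 0.17, adjusted p = 0.00603), COX6C (-0.40 ± 0.10, adjusted p = 0.00299), ATP5I (-0.33 ± 0.12, adjusted p = 0.023) and NDUFS8 (-0.29 ± 0.11, adjusted p = 0.0457) were lower. UQCR10 was higher at each of the 8 times in its fitted difference, with its largest value, 1.11, at 72 h, where treated samples held 153 and 248 and the lone control 89.7 RPKM. At 24 and 168 h the first treated sample, at 137 and 93.9 RPKM, lay under both controls (154 and 204, 100 and 128 RPKM), so there the higher mean came from the second treated sample. NDUFB9 lost its call over all times without the second treated samples at 24 and 168 h. With sample number as a block 10 members were lower, and without the second treated sample at 168 h 12 were. NDUFS8 lost its call with the block within each time and in 17 of the 28 fits that left out 1 library. The fit without sample 2 of the treated at 24 h was among these 17.

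Other genes of the organelle gave a mixed picture at 0 to 48 h. Of 13 mitochondrially encoded genes listed, 5 were measured, among them COX1 of the core of complex IV, and all 5 fell (median -1.04). COX1 stood at 1516 ± 385 against 3268 ± 830 RPKM (SD, n = 6 each, -1.11 ± 0.12, limma adjusted p = 1.52e-06). At 120 to 168 h 4 of the 5 were still lower (median -0.56), while none of the 7 nuclear genes of complex IV analysed passed. Among assembly factors 7 rose and 4 fell of 29 (median -0.01). COX17, the copper chaperone of complex IV, fell (-0.74 ± 0.25, limma adjusted p = 0.0216), and SURF1 (0.45 ± 0.12) and COX10 (0.37 ± 0.10), which serve complex IV assembly and its heme, rose. UQCC (0.75 ± 0.13) and BCS1L (0.51 ± 0.16), factors of complex III, rose. Cytochrome c itself, CYCS, gave -0.18 and did not pass, nor did NDUFAB1, a complex I subunit and carrier protein outside the name rule (0.05).

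Of 15 measured regulators of mitochondrial biogenesis 6 rose and 2 fell. The coactivator genes PPARGC1A (-0.49 ± 0.11, limma adjusted p = 0.0015) and PPARGC1B (-0.34 ± 0.10) fell, while their relative PPRC1 rose from 7.53 ± 2.16 in control to 15.1 ± 4.11 RPKM in treated samples (SD, n = 6 each, 0.91 ± 0.16, adjusted p = 0.000142). POLRMT, the mitochondrial RNA polymerase gene, rose (0.48 ± 0.11). NRF1 (0.04) and TFAM (0.01), classic activators of respiratory chain and mitochondrial genes, did not pass. In the citric acid cycle 6 rose and 2 fell of 16, with SUCLG2 (0.77 ± 0.12) and DLAT (0.73 ± 0.11) among the rises and MDH2 (-0.29 ± 0.10) among the falls. Of 61 mitochondrial ribosomal protein genes 18 rose and 3 fell (median 0.20), with MRPS35 (0.99 ± 0.14), MRPS30 (0.70 ± 0.13) and MRPL10 (0.62 ± 0.19) the largest rises.

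Among carriers, import and cristae genes 7 rose and 4 fell of 21. SLC25A6, an ADP/ATP carrier, fell to 302 ± 81.3 from 697 ± 222 RPKM (SD, n = 6 each, -1.18 ± 0.10, limma adjusted p = 6.96e-08), and SLC25A3, the phosphate carrier, rose (0.63 ± 0.10, adjusted p = 5.49e-05). TIMM44 of the import motor rose (0.69 ± 0.10). At 120 to 168 h SLC25A6 did not pass (0.23, adjusted p = 0.16). In the hypoxia and glycolysis list 2 rose and 25 fell of 35 (median -0.53), with NDRG1 (-2.50 ± 0.22), EGLN3 (-2.45 ± 0.25) and LDHA (-2.02 ± 0.16) the largest falls and ADM (1.02 ± 0.17) and PDK4 (0.69 ± 0.19) the rises. These lists were chosen with earlier results of the same samples known, and their counts stand beside 27.6% higher and 23.5% lower among all features.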

How the data were processed

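RNA sequencing of 28 chicken basilar papilla samples was used. The authors deposited RPKM for each feature and sample, with the alignments per library. TopHat 1.4.0 and Partek 6.6 stand in the submitters' processing notes without roles. Genome build, annotation and strand were not given in the sources used here. Counts are not in the table used, so no counting intervals are given. Of 32 value columns, 4 match no sample and were not used. Of the members, 56 matched a reference symbol, 2 a synonym and 2 neither. Another 16 reference symbols under the rule, SDHC and COX8A among them, were not analysed here, nor were NDUFA4L2, COX4I2, COX6A2 and COX7A1.

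The 12195 features that reached 1 RPKM in 2 or more samples were fitted as log2(RPKM + 1) with limma 3.58.1 in R 4.3.3 (intensity trend, two-sided, Benjamini-Hochberg over all features). The scale understates folds of low genes. The fit over all times used time and treatment (19 residual degrees of freedom), the others contrasts of 16 group means (12), with the spread of a lone sample taken to equal that of the rest. The fit was tested on simulated data, but no outcome of that test is given here. Members, lists and tests were chosen with earlier results of these data known. Named genes are mainly the 8 largest rises and falls that passed per comparison (2 at single times), the isoform and SDH genes, the most abundant member of each complex and up to 3 list members per direction. Some genes were named outside this rule, such as ATP5O, ATP5G3, UQCRC1, UQCRC2, CYCS, NDUFAB1, NRF1 and TFAM. One list member is not reported here.

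Deviations of same-numbered samples from their group means correlated between the arms across features at 0.307, 0.291, 0.105, 0.478 and 0.409 (0, 24, 48, 144 and 168 h). The numbers, from the sample titles, were therefore taken to pair samples, but only in the fits with a block. The main fits and the fits that left out a library did not use this pairing. Other settings tried were no filter, a pseudocount of 0.1, no trend, median-of-ratios rescaling, blocks, other windows, fewer samples in the fit and leaving out each library. The shares of all features called come from the main fits alone.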

Additional observations from a re-analysis of the deposited data

Results flagged for a closer look

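For 10 members the treated minus control difference itself differed between 120 to 168 h and 0 to 48 h (limma, adjusted p under 0.05). On the log2 scale the late minus early value was -1.15 for NDUFV3, -0.67 for NDUFA9 and -0.55 for SDHA, which were higher in treated samples early. It was 0.39 for ATP5F1, 0.43 for COX5A, 0.65 for COX4I1, 0.65 for NDUFS8, 0.65 for COX6C, 0.68 for NDUFA5 and 0.71 for COX7A2, which were lower early. Leaving out 1 library in turn lost the calls of ATP5F1 in 18, COX7A2 in 15 and COX5A in 10 of 28 fits. Each was lost, among others, without sample 2 of the treated at 168 h. Over 0 and 48 h with 120 and 168 h 0 of the upward calls passed. Hair cell markers summed to 7.26 to 30.6 against 447 to 977 RPKM early and 11.9 to 20.5 against 126 to 309 RPKM late, and their part in these results was not tested.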

How the results depend on the processing

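No call of a member turned its direction under any alternative run. The share of all features called was not computed for these runs, so member counts there cannot be set against a general gain or loss of calls. With median-of-ratios rescaling 10 members were lower over all times, 2 higher at 120 to 168 h (NDUFA5 and NDUFS3), 15 moved up in the late minus early difference, 17 fell in controls and 15 rose in treated samples over time. Calls were 10 for controls from 0 to 24 h, 8 at 0 h, 11 at 48 h, 1 at 72 h and 1 at 144 h. With sample number as a replicate block, 10 were lower over all times, 1 was lower at 120 to 168 h, 5 rose in controls over time, and calls were 11 for controls from 0 to 24 h, 8 at 0 h, 11 at 48 h, 1 at 72 h and 1 at 144 h. With the block within each time, 9 were lower over all times, 4 lower late, 11 moved up and 5 down in the difference, 7 rose in controls, 19 rose and 11 fell in treated samples, and calls were 18 and 1 for the first day in controls and treated samples, 16 at 0 h, 24 at 24 h, 15 at 48 h and 1 each at 72, 96 and 144 h. Beyond NDUFS8 over all times and COX7A2 in the difference and in controls, the blocks ended no call.

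Without a filter 5 rose in treated samples over time, with 2 calls at 0 h and 1 at 48 h. Without the trend there were 2 at 0 h. With only the samples compared, 15 fell in controls and 5 rose in treated samples. Over 0 and 48 h and 120 and 168 h (chosen after seeing the data), 8 were lower early, 0 moved up in the difference, 1 fell in controls, and 4 rose and 3 fell in treated samples. Without the second treated samples at 24 and 168 h (also chosen after seeing the data), 14 were lower over all times, 4 lower late, 11 moved up in the difference, 11 fell in controls, and calls were 10 for controls from 0 to 24 h, 10 at 0 h, 22 at 24 h, 14 at 48 h, 1 at 72 h, 1 at 144 h and 2 at 168 h.

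Leaving out 1 library gave 5 to 6 higher and 3 to 12 lower over all times, 3 to 9 and 10 to 20 at 0 to 48 h, 0 to 1 and 0 to 0 at 120 to 168 h, and 4 to 13 up and 3 to 3 down in the difference. Controls over time gave 3 to 4 and 4 to 7, treated samples 5 to 18 and 4 to 15. First-day calls were 0 to 7 in controls and 0 to 0 in treated samples. Single times gave 0 to 7 (0 h), 7 to 17 (24 h), 1 to 10 (48 h), 0 to 3 (72 h) and 0 to 0 from 96 h on. Most groups hold 2 samples, which limits all single-time calls.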
